A study of Stipitochalara longipes with 7 samples.

Results

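The transcripts described here belong to gene models of the ascomycete Stipitochalara longipes (Chalara longipesis in the labels) that were low at 5 months of growth on pine needles and higher at both 2 and 10 months. Members were the models whose lowest scaled read number over the 5 libraries of the 2- and 10-month harvests was at least 100 and at least 2 times the highest value in the 2 libraries of the 5-month harvest. Scaled reads are total gene reads divided by the size factor of the library, which is the median, over the 8859 models with reads in all 7 libraries, of the reads divided by their geometric mean. Models that stood at least 2 times above every other library at 2 months or at 10 months alone were left out. Of 19765 gene models, 93 met the rule, of the 5556 that passed its level clause alone. Because the choice used the values of all 7 libraries, the levels below describe the members and carry no test.

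RNA came from 2 libraries at 2 months, 2 at 5 months and 3 at 10 months. Each microcosm held gamma-sterilised Scots pine needles on sand and received ammonium chloride (20 ml, 100 mM) once. All 3 harvests shared this treatment, the incubation at 20 °C and the inoculum, which was needles colonised by the fungus beforehand. No microcosm without the fungus and no harvest before 2 months was analysed here, and the labels describe the libraries as biological replicates.

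Stipitochalara longipes is a litter fungus, known from decaying conifer needles. Fungi that live on litter take up soluble compounds and secrete enzymes that release sugars from cellulose, hemicellulose and pectin, while the lignin-rich residue is broken down slowly. The set of genes that such a fungus transcribes is known to shift as the substrate is used up. The files pair no identifier with a gene name, product or position, so the members are given by their JGI (Joint Genome Institute) protein identifier and by the length of the gene model that the deposited values imply. No role can be assigned to any of them here, and no sequence is shown.

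Libraries totalled 20009777 to 52554481 reads, and 8 very abundant models took between 30.0% and 93.3% of them, which left 2938002 to 16923473 reads for all others. 2-month replicate 2 stood apart, with 93.3% of its reads on those 8 models and with 10139 models detected, against 13405 to 17076 in the other 6 libraries. One scaled read therefore rests on very different depth: 100 scaled reads stand for 29.4 reads in 2-month replicate 2 and for 187 reads in 5-month replicate 2. A scaled value is set against the other models of its library and is not a share of all reads, and fewer hyphae of one kind and less RNA per hypha cannot be told apart.

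By scaled reads, the 93 members together were low in both 5-month libraries and high in all others. Their summed scaled reads were 1360647 and 697986 in the 2-month libraries (replicates in numerical order here and below), then 211907 and 159754 in the 5-month and 1240637, 1561530 and 1008379 in the 10-month libraries. Both 5-month sums lay at 15.5% to 20.6% of the 2-month mean, and the 10-month sums at 98.0% to 152%. Without 2-month replicate 2, and with size factors of the other 6 libraries, these were 10.4% to 14.2% and 70.0% to 111%. Set against the reads outside the 8 abundant models, all member reads came to 13.2% and 6.99% at 2 months and 2.41% and 2.13% at 5 months. At 10 months they came to 11.2%, 13.2% and 8.45%. Gene model 348936, one of the 8, is counted in the member reads but not in the reads they are divided by. These values are therefore not shares and are higher than the members' share of those reads. It held 1026023 of the 2242234 member reads in 2-month replicate 1. As a share of all reads, they held 6.99% and 0.467% at 2 months, then 0.316% and 1.49% at 5 months and then 7.37%, 6.41% and 2.44% at 10 months. On that measure 2-month replicate 2 lay below 5-month replicate 2. The 5 members with the most scaled reads made up 63.4% of the sum at 2 months, 62.0% at 5 months and 61.6% at 10 months. Without those 5, the sums were 469155 and 284655 at 2 months, then 76159 and 65168 at 5 months and then 459286, 559054 and 446257 at 10 months. Each member was chosen for its low 5-month values, so the order of these sums is set by the rule.

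The median member behaved like the sum. It had 2390 and 1672 scaled reads in the 2-month libraries, then 419 and 422 in the 5-month and 2473, 2280 and 2242 in the 10-month libraries. Over the 5556 models that passed the level clause, the median ran from 602 to 693 scaled reads across the 7 libraries. The size factors are medians over models, so the scaling itself holds such a median nearly level. The 5-month mean was 0.190 of the 2-month mean in the median member, with a range of 0.00853 to 0.433. The 10-month mean was 5.87 times the 5-month mean in the median member, with a range of 2.39 to 88.5. Both ranges are bounded at their near end by the rule. By the rule, no 5-month library overlapped the 2-month or the 10-month libraries in any member. Among the models that passed the level clause, both 5-month libraries were below both 2-month libraries in 29.2%, all 10-month libraries were above both 5-month libraries in 36.8%, and both held together in 16.5%.

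**Figure D1:**
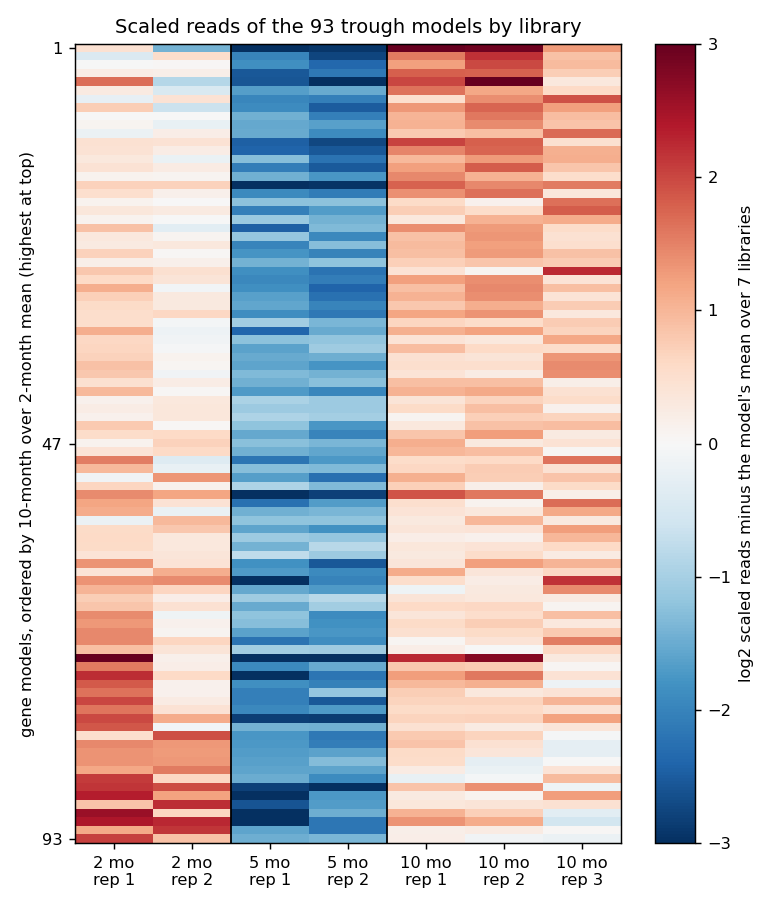
Scaled reads of the 93 members in each of the 7 libraries, as log2 values minus the mean of the model over all libraries. Rows run from the member with the highest ratio of 10-month to 2-month mean at the top to the lowest at the bottom, and differences beyond 3 are drawn at the end of the colour scale. The 2 columns of the 5-month libraries are blue throughout, and the 2- and 10-month columns exchange their order from top to bottom.

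The separation between harvests, measured as the lowest 2- or 10-month value over the highest 5-month value, had a median of 2.85 and a middle range of 2.33 to 3.76. It lay between 2 and 3 in 53 members, between 3 and 4 in 21, between 4 and 5 in 9 and at 5 or more in 10. These 10 members had medians of 2971 and 2736 scaled reads in the 2-month libraries, then 307 and 309 in the 5-month and 6148, 6165 and 4199 in the 10-month libraries. The shortest of these models measured 675 bp, the median one 1119 bp and the longest 2358 bp.

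The widest separation was that of gene model 425196 (933 bp), with a ratio of 19.2. It had 133678 and 14564 scaled reads in the 2-month libraries, then 758 and 506 in the 5-month and 63127, 88648 and 16105 in the 10-month libraries. All 5-month values were far below the others, but libraries of one harvest differed 9.18-fold at 2 months and 5.50-fold at 10 months, so the means of 74121 ± 84227 (SD, n = 2) and 55960 ± 36799 (SD, n = 3) are loose while the 5-month mean of 632 ± 178 (SD, n = 2) is not. The least separated pair of libraries, 2-month replicate 2 and 5-month replicate 1, rested on 4285 and 593 reads. The ratio was 29.0 without 5-month replicate 1, and 90.9 without both 2-month replicate 2 and 10-month replicate 3.

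Gene model 428518 (1128 bp) came next with a ratio of 12.2 and was much steadier. It had 2938 and 2899 scaled reads at 2 months, then 194 and 237 at 5 months and then 6209, 4892 and 5293 at 10 months. The libraries of each harvest lay within 1.27-fold of each other, and all 10-month libraries were above both 2-month libraries. Gene model 403213 (1011 bp, ratio 11.2), singled out after its values were seen, had 48594 and 26449 scaled reads at 2 months, then 1733 and 1693 at 5 months and then 19459, 19885 and 28322 at 10 months. Its 2- and 10-month libraries overlapped, and its 5-month libraries were nearly equal.

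The members reached high levels. The mean over all libraries was at least 10000 scaled reads in 15 members, 3000 to 10000 in 20, 1000 to 3000 in 25, 300 to 1000 in 24 and under 300 in 9. Per length, the median member had 1292 scaled reads per kb, against 439 in the models that passed the level clause. The member with the most scaled reads was 348936 (861 bp), with 362498 scaled reads per kb on average. It had 622618 and 274047 scaled reads at 2 months, then 104266 and 71716 at 5 months and then 374558, 422003 and 315566 at 10 months. It is the only one of the 8 most abundant models among the members.

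Gene model 504166 (1953 bp) was second in scaled reads, with 60086 per kb. It had 75406 and 78633 scaled reads at 2 months, then 21405 and 15013 at 5 months and then 179909, 304021 and 147056 at 10 months. Its 10-month mean of 210328 ± 82786 (SD, n = 3) was 2.73 times its 2-month mean of 77020 ± 2282 (SD, n = 2), with no overlap of the libraries. In the 15 members with at least 10000 scaled reads, the median was 25819 and 14560 at 2 months, then 3167 and 2120 at 5 months and then 25240, 34065 and 18855 at 10 months. The 9 members under 300 scaled reads had medians of 379 and 231 at 2 months, then 42.2 and 36.9 at 5 months and then 215, 194 and 262 at 10 months.

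**Figure D2:**
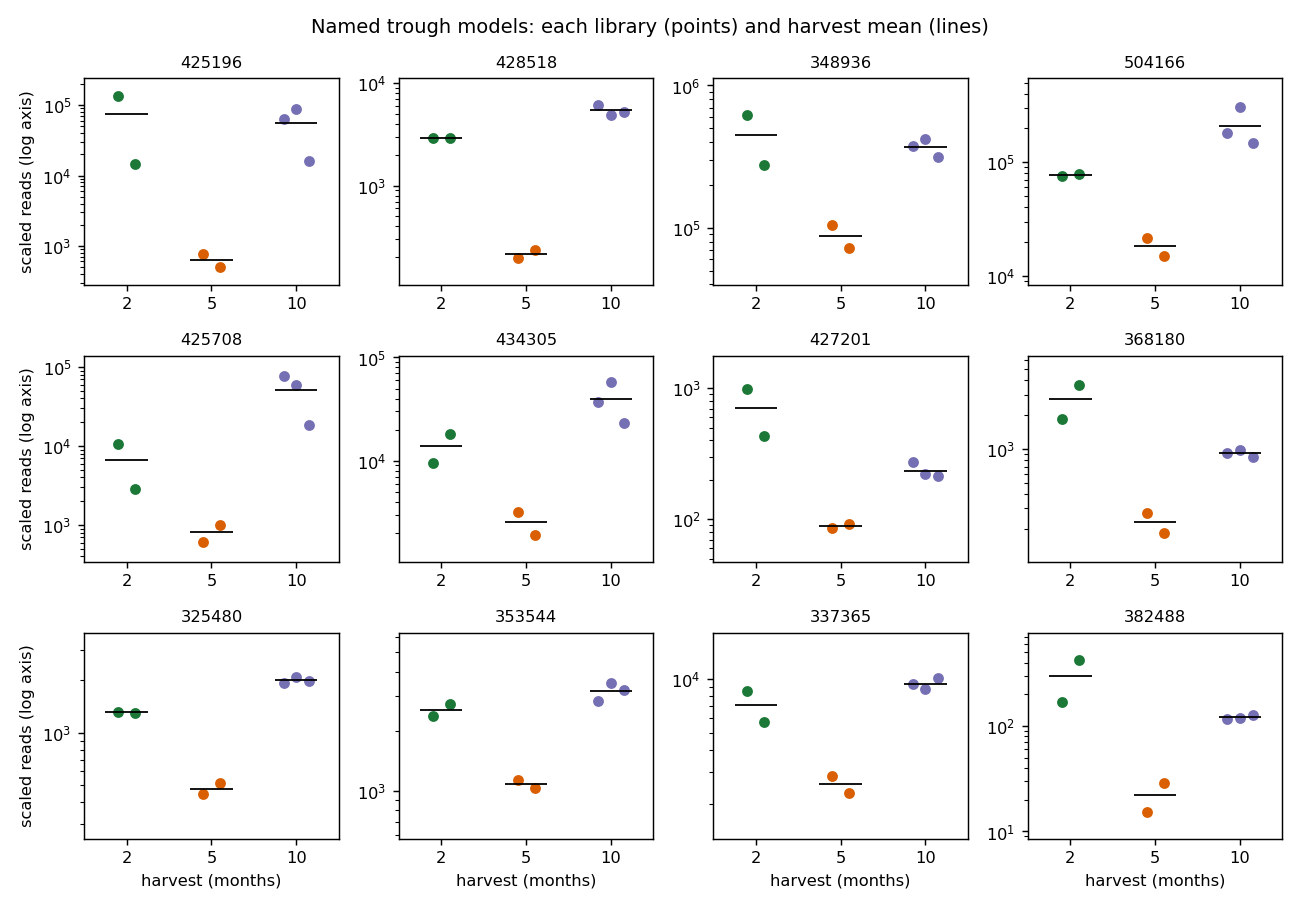
Scaled reads (log axis) of the 12 named members at 2, 5 and 10 months. Points are single libraries (2, 2 and 3 per harvest) and lines are harvest means; each panel has its own axis. In every panel both 5-month points lie below all others, while the position of the 10-month points relative to the 2-month points differs between members.

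How far members came back at 10 months varied. All 10-month libraries lay above both 2-month libraries in 26 members (28.0%), all lay below in 9 (9.68%), and the libraries overlapped in 58 (62.4%). Over the models that passed the level clause these shares were 25.4%, 17.7% and 56.9%. The rule constrains the levels of both harvests, so nothing is read from the difference. The 10-month mean was 1.17 times the 2-month mean in the median member, against 1.04 in the models that passed the level clause. It was at least 2 times the 2-month mean in 15 members, at most 0.5 of it in 11 and between these limits in 67. Of the 5556 models that passed the level clause, these were 779, 525 and 4252. The counts of members depended on single libraries, as did those over all models that passed the level clause. Without 2-month replicate 2, the 10-month libraries lay above the remaining 2-month library in 26 members (28.0%, against 35.9%). They lay below it in 33 (35.5%, against 37.7%) and on both sides in 34, against 1468 of the 5556 models. In that setting 8 members were at least 2 times and 20 at most 0.5 of the 2-month level, against 815 and 632 models. Without 2-month replicate 1, the 10-month libraries lay above the remaining one in 53 members (57.0%, against 45.3%). They lay below it in 11 (11.8%, against 32.9%). Without 10-month replicate 3, the other 10-month libraries lay below both 2-month libraries in 19 members (20.4%, against 21.6%). Without 2-month replicate 2 the fitted median log2 difference of the members, 10 against 2 months, changed sign, to -0.03 from 0.22 with all libraries. Over all models tested it was 0.07 there and 0.20 with all libraries.

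The 26 members that ended above the 2-month level had medians of 4322 and 3254 scaled reads at 2 months, then 868 and 792 at 5 months and then 6302, 7435 and 6273 at 10 months. Their median length was 1632 bp. Gene model 425708 (495 bp) had the largest return, with 10576 and 2869 scaled reads at 2 months, then 617 and 1014 at 5 months and then 77681, 58601 and 18550 at 10 months. Its 10-month mean was 7.68 times the 2-month mean and 63.3 times the 5-month mean, and its lowest 10-month value was in replicate 3. The 10-month level was 18.0 times the 2-month level without 2-month replicate 1 and 4.67 times without replicate 2. Next was 434305 (3243 bp), with 9390 and 18221 scaled reads at 2 months, then 3187 and 1888 at 5 months and then 37128, 58008 and 23340 at 10 months, a 10-month mean 2.86 times the 2-month mean. Neither had overlapping libraries between any harvests.

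The 9 members that ended below the 2-month level had medians of 1207 and 1081 scaled reads at 2 months, then 93.3 and 115 at 5 months and then 575, 542 and 284 at 10 months. Gene model 427201 (537 bp) had 987 and 435 scaled reads at 2 months, then 85.6 and 92.4 at 5 months and then 273, 220 and 212 at 10 months. Its 10-month mean of 235 ± 32.9 (SD, n = 3) was 0.331 of its 2-month mean of 711 ± 390 (SD, n = 2), and 0.540 of the 2-month level without 2-month replicate 1. Gene model 368180 (2690 bp) had 1823 and 3667 scaled reads at 2 months, then 276 and 184 at 5 months and then 925, 977 and 846 at 10 months, and its 10-month mean was 0.334 of the 2-month mean. In both, the 10-month libraries agreed more closely with each other than the 2-month libraries did. These members regained part of the 2-month level only.

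**Figure D3:**
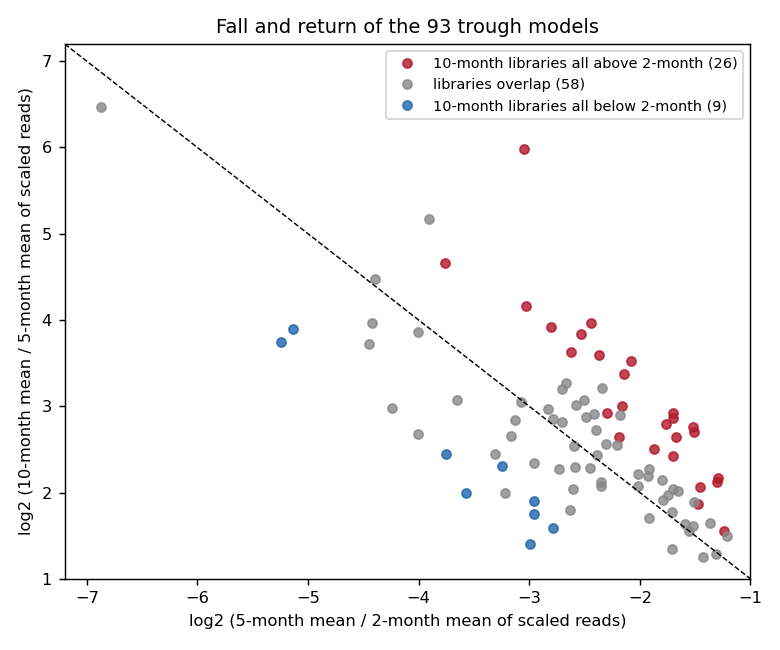
Each point is one of the 93 members; the horizontal axis is log2 of the 5-month over the 2-month mean of scaled reads and the vertical axis log2 of the 10-month over the 5-month mean. The dashed line marks equal means at 2 and 10 months. The 26 members whose 10-month libraries all exceeded the 2-month libraries (red) lie above the line, the 9 with all of them lower (blue) below it, and the 58 with overlapping libraries (grey) on both sides; both axes share the 5-month mean, so the slope of the cloud is not a result.

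The 2 libraries of a harvest lay closer at 5 than at 2 months in the median member. The highest library exceeded the lowest by a median of 1.49-fold at 2 months, 1.29-fold at 5 months and 1.77-fold at 10 months. In the models that passed the level clause these were 1.61, 1.25 and 1.46. The 10-month value is taken over 3 libraries and the others over 2, so it cannot be set against them. The rule also limits the highest 5-month value of a member. The 5-month libraries lay within 1.5-fold of each other in 69 members (74.2%, against 78.6%), and replicate 1 was the higher one in 57 and replicate 2 in 36. Measured against the mean of the 2- and 10-month means, the median member stood at a log2 difference of -2.48 in 5-month replicate 1 and -2.57 in replicate 2. At 2 months, replicate 1 was above replicate 2 in 71 members (76.3%, against 54.6%). At 10 months, replicate 3 was the lowest of the 3 in 49 members (52.7%, against 37.6%).

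The members with the tightest harvests were 325480 (1785 bp) and 353544 (1179 bp). Gene model 325480 had 1323 and 1298 scaled reads at 2 months, then 442 and 513 at 5 months and then 1934, 2087 and 1990 at 10 months. Gene model 353544 had 2390 and 2750 scaled reads at 2 months, then 1137 and 1036 at 5 months and then 2856, 3489 and 3224 at 10 months. In both the 3 harvests did not overlap, with 5 months lowest and 10 months highest.

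At the ratio threshold, the member just inside was 337365 (1176 bp, ratio 2.004), with 8559 and 5747 scaled reads at 2 months, then 2868 and 2284 at 5 months and then 9295, 8792 and 10080 at 10 months. The model just outside was 401682 (1417 bp, ratio 1.99), with 5785 and 4231 at 2 months, then 2130 and 1908 at 5 months and then 6480, 6831 and 11652 at 10 months. Their values were close, and the threshold marks no gap. The ratio of 337365 fell below the threshold without any one of the 10-month libraries (1.97 to 1.99) and with unique reads (1.996), and it was 3.24 without 2-month replicate 2. At the level threshold, the lowest member was 382488 (1718 bp), with 167 and 428 scaled reads at 2 months, then 15.3 and 28.8 at 5 months and then 116, 119 and 126 at 10 months. The model just outside, 441182 (387 bp), had 134 and 88.4 at 2 months, then 25.6 and 29.9 at 5 months and then 146, 218 and 131 at 10 months. The low end is thinly counted: 382488 had 12 reads in 5-month replicate 1. The smallest count behind any member value was 8 reads, for 360115 in 5-month replicate 1, with an exact 95% Poisson interval of 3.45 to 15.8 reads that covers counting error only. No member was at 0 in any library, and the smallest count in 2-month replicate 2 was 40 reads.

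The leave-out clause removed 7 models with the same trough. Of these, 6 stood at least 2 times higher at 10 months than in every other library, and 1 did so at 2 months. Their separation ratios ran from 2.07 to 3.88, within the range of the members. Gene model 411538, the one highest at 2 months, had 7312 and 4843 scaled reads at 2 months, then 162 and 101 at 5 months and then 1067, 717 and 630 at 10 months. Gene model 425358, with the most scaled reads of the 6, had 8138 and 7457 at 2 months, then 2195 and 2397 at 5 months and then 34901, 40628 and 26196 at 10 months. Both were named after their values were seen.

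One library often held the lowest value. The lowest of the 5 values at 2 and 10 months came from 2-month replicate 2 in 46 members (49.5%, against 35.9% of the models that passed the level clause) and from 10-month replicate 3 in 20 (21.5%, against 18.1%). The rule applied without 2-month replicate 2 found 245 models, of which the 200 with the largest ratio included 82 of the 93 members. The rule keeps at most 200 models, so the remaining members need not have failed its thresholds. Without 5-month replicate 1 it found 163 models and without 5-month replicate 2 it found 176, each with all 93 members among them. Without 2-month replicate 1 it found 131 models, and without 1 of the 10-month libraries 94 to 108.

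Models were also chosen by their values in 6 libraries, and the left-out library was then read. Size factors came from all 7 libraries, so the left-out library still took part in the scale and the reading is not independent. With size factors of the other 6 libraries, 245 models met the rule without 2-month replicate 2, against 195 here. The 93 models kept in each left-out 5-month library are the 93 members themselves. Of 163 models chosen without 5-month replicate 1, 93 (57.1%) were at or below 0.5 of their lowest 2- and 10-month value in that library, against 3.51% of all models passing the level clause. In the same library 159 (97.5%, against 23.5%) were below all 2- and 10-month libraries. Of 176 chosen without 5-month replicate 2, 93 (52.8%, against 3.1%) were at or below 0.5 there, and 159 (90.3%, against 25.3%) were below all. For left-out 10-month libraries, at least 2 times the highest 5-month value was reached by 91 of 97 models in replicate 1 (93.8%, against 12.8%), 92 of 97 in replicate 2 (94.8%, against 13.8%) and 86 of 110 in replicate 3 (78.2%, against 15.7%). For 2-month libraries these were 83 of 128 in replicate 1 (64.8%, against 12.3%) and 86 of 195 in replicate 2 (44.1%, against 10.6%). The pattern recurred least often in 2-month replicate 2. The models are not independent of each other, and the share over all models is given as a description.

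**Figure D4:**
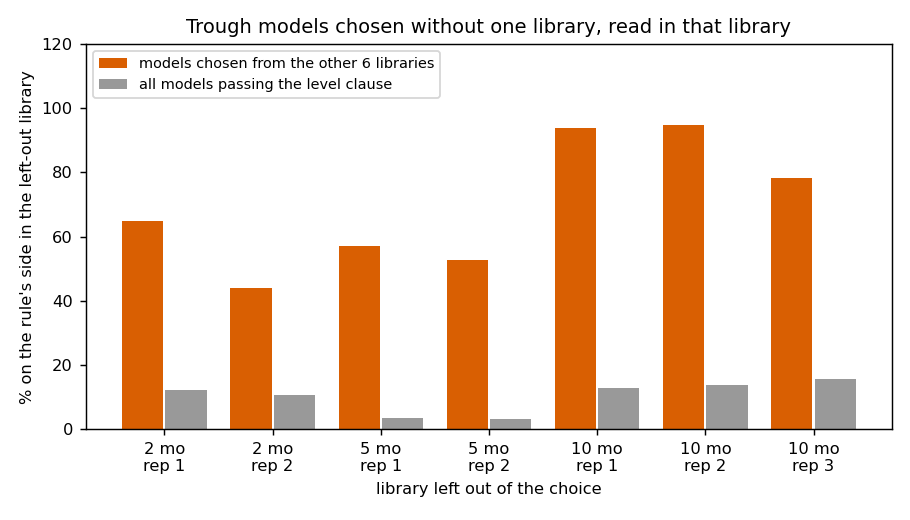
Percent of gene models on the rule's side in a library left out of the choice, for models chosen from the other 6 libraries (orange) and for all models that passed the level clause (grey). For a 5-month library this means at or below 0.5 of the lowest 2- and 10-month value, and for the others at or above 2 times the highest 5-month value. Orange bars run from 44.1% (2-month replicate 2) to 94.8% (10-month replicate 2) and grey bars from 3.1% to 15.7%. Size factors came from all libraries, the left-out one included.

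The length of a gene model took no part in the choice. The members had a median implied length of 1139 bp and a middle range of 861 to 1785 bp, whereas the models that passed the level clause had a median of 1608 bp and a middle range of 1095 to 2260 bp. Under 1000 bp were 35 members (37.6%), against 19.9% of those models and 31.6% of all 18407 models with reads, whose median was 1323 bp. At 2500 bp or longer were 8 members (8.60%), against 20.0% and 11.7%. The shortest member was 467475 (243 bp) and the longest 552493 (4171 bp), both named after their values were seen. Models low only at 2 months (179, by the mirrored rule) had a median of 1626 bp and models low only at 10 months (41) had 1764 bp, and 10.1% and 14.6% of them were under 1000 bp. By length class, members made up 3.17% of the models under 1000 bp that passed the level clause, 2.00% from 1000 to 1500 bp, 1.14% from 1500 to 2000 bp, 1.13% from 2000 to 2500 bp and 0.721% at 2500 bp or longer.

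The same order was present in the models that passed the level clause as a whole. Their 5-month mean, relative to the mean of the 2- and 10-month means, was 0.714 in the median model under 1000 bp, 0.862 from 1500 to 2000 bp and 0.947 at 2500 bp or longer. It was also lower in strongly expressed models, at 0.680 in the highest quartile of scaled reads per kb, which held 55 of the 93 members, and 0.979 in the lowest quartile, which held 6. Within both level classes a larger share of the shorter models were members. At or above the median scaled reads, members were 3.99% of models under 1000 bp and 2.07% of longer ones. Below it they were 2.35% and 0.539%.

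Length also moved with single libraries. Over 1482 models under 1000 bp with reads in all libraries and a mean of at least 100 scaled reads, the median log2 deviation from the model's own mean stood at 0.54 and -0.27 at 2 months, then -0.31 and -0.07 at 5 months and then 0.19, 0.11 and 0.04 at 10 months. In 2300 models of 2000 bp and longer it stood at -0.26 and 0.27 at 2 months, then 0.17 and -0.04 at 5 months and then -0.04, -0.01 and 0.04 at 10 months. Libraries of one harvest went opposite ways at 2 months. The part of these library differences in the lengths of the members was not tested.

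**Figure D5:**
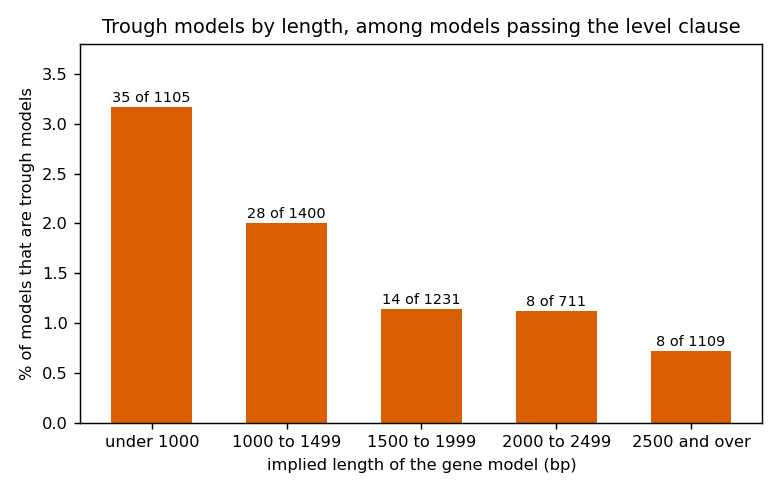
Percent of gene models that are members, by implied length class, among the 5556 models that passed the level clause; the numbers above the bars are members of all models in the class. The percentage runs from 3.17% under 1000 bp to 0.721% at 2500 bp or longer.

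The return at 10 months is given by length as a description. The 35 members under 1000 bp had a median 10-month mean of 1.05 times the 2-month mean, the 42 from 1000 to 2000 bp one of 1.21 times and the 16 longer ones one of 1.74 times. In the models of these lengths that passed the level clause it was 0.913, 1.11 and 1.01 times. Without 2-month replicate 2 the members stood at 0.754, 0.996 and 1.61 times, against 0.724, 0.991 and 1.19. Without 2-month replicate 1 the members stood at 1.48, 1.33 and 1.93 times, against 1.37, 1.27 and 0.894, so the order of the classes was not the same. The median separation ratio was 2.41, 2.99 and 3.01 in these classes. Across the 93 members, Spearman's rho was 0.26 between length and separation ratio and 0.14 between mean scaled reads and separation ratio, both from the same libraries and given as a description.

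Reads on the members were nearly all unique. In 76 members all reads were unique, in 92 at least 95% were, and the lowest share was 92.7% in 360115 (1081 bp), so reads shared with near-identical copies made up a small part. Overlapping or antisense models cannot be told apart in these tables, since no source used here gives the handling of strand. Gene model 360115 had 1207 and 1084 scaled reads at 2 months, then 10.2 and 50.2 at 5 months and then 575, 485 and 154 at 10 months, with its 5-month libraries 4.91-fold apart, the widest of all members.

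For reference, a model fitted over all 14753 gene models with enough reads (edgeR's quasi-likelihood test with Benjamini-Hochberg adjustment) also covered all 93 members. It called 45 of them lower at 5 than at 2 months, where the background was 0.746% of all models tested, and 69 higher at 10 than at 5 months, where it was 1.63%. DESeq2 called 87 and 91, against 2.66% and 4.37% of all models, and limma-voom with sample quality weights called 78 and 93, against 1.86% and 12.1%. The rule used these contrasts, and nothing is read from the counts. Both comparisons share the 5-month libraries. Leaving out either 5-month library left 1 library at that harvest, so only fitted sizes are given for it. Without 5-month replicate 1 the members' median log2 fold change was -2.74 for 5 against 2 months and 2.73 for 10 against 5 months. Over all models tested it was 0.15 and -0.09. Without 5-month replicate 2 these were -2.44 and 2.64 in the members, against -0.00017 and 0.07. No other tool was run without those libraries. At 10 against 2 months edgeR called 0 members, against 1.64% of all models called higher and 0.705% called lower. An unadjusted p under 0.05 in that test was found in 24 of the 93 members, against 2856 of the 14753 models. DESeq2 called 7 members higher and 3 lower there, against 7.67% and 4.21% of all models, and limma-voom called 1 and 1, against 1.18% and 1.21%. The median fitted log2 fold change of the members was -2.58 for 5 against 2 months, 2.71 for 10 against 5 months and 0.22 for 10 against 2 months, beside 0.10, -0.06 and 0.20 over all models tested.

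The scaling decided how many models showed the trough. Scaled to the reads outside the 8 abundant models, 53 models met the rule, 52 of them among the 93. Scaled to library totals, as in the deposited RPKM values, 2 models did. On that scale the lowest 2- or 10-month value was below the highest 5-month value in 9 of the 12 named members, among them 428518 (ratio 0.875) and 348936 (ratio 0.273). The 8 abundant models, 348936 among them, took 93.3% of 2-month replicate 2 and 30.0% of 5-month replicate 2. The part of this difference in the lower ratios on that scale was not tested. With TMM-scaled library sizes, 129 models met the rule, all 93 members included.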

How the data were processed

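The authors deposited 1 table per library over 19765 gene models. Per the file headers, its columns are read counts (unique reads, and total reads) and RPKM values. Per the labels' protocols, RNA was extracted from 800 mg of frozen tissue per sample, and the series description gives paired reads of 125 bp. Aligner, counter, genome build, annotation and read filters: not given in the sources used here. The deposited RPKM values divide total gene reads by model length and library total; the length was recovered from them, and differed between libraries by at most 0.0045 bp per model.

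The rule was applied to total gene reads divided by median-of-ratios size factors (0.294 to 1.87). The members and lists were chosen with earlier results of these data known. edgeR 4.0.16 (R 4.3.3) was run on all 7 libraries with filterByExpr, TMM and harvest as the group, with adjusted p under 0.05. DESeq2 1.42.0, with its own size factors, and limma 3.58.1 (voom with sample quality weights) were alternatives. The rule and the test were run on simulated data as a check of the code, and nothing about these libraries is read from that. Named members were the 2 with the widest separation, the 2 with most scaled reads, the 2 largest and 2 smallest 10-month to 2-month ratios, the 2 with the closest libraries and those next to each threshold. The main model has no replicate block. An edgeR p-value sets a fitted difference between harvests against the spread among libraries of the same harvest. That spread was estimated over all 7 libraries together, with information shared across gene models. Functional gene lists matched no identifier and were not used.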

Additional observations from a re-analysis of the deposited data

How the results depend on the processing

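Most alternatives changed 1 choice; DESeq2 also brings its own scaling and limma-voom its sample quality weights. Scaling by library totals or by reads outside the 8 abundant models, and leaving out 2-month replicate 2 together with 10-month replicate 3, and the 10-month to 2-month ratios without single libraries were chosen after seeing the data; the cause of the shifts below was not tested. The rule found 93 models. It found 200 (the cap, of 219) at a ratio of 1.5 and 40 at a ratio of 3, 53 with reads outside the abundant models, 2 with library totals and 200 (the cap, of 322) without both libraries; leaving out 1 library gave 94 to 200. Level thresholds of 50 and 200, unique reads, TMM and dropping the leave-out clause gave 83 to 129. The median length was 1139 bp and moved to 952.5 bp with library totals, where 2 models remained; leaving out 1 library gave 1088.5 to 1341 bp. The pooled share kept in a left-out library, 64.6%, was 73.6% at a ratio of 3, 8.96% with library totals and 72.2% with reads outside the abundant models. The median log2 depth in 5-month replicates 1 and 2 (-2.48 and -2.57) was -3.77 and -1.25 with library totals, -2.21 and -2.02 with reads outside the abundant models, -2.95 in replicate 2 without both libraries, and -2.69 to -2.36 and -2.86 to -2.48 without 1 library.

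Members called lower at 5 than at 2 months (45) and higher at 10 than at 5 months (69) were 0 and 0 with library size only. No model at all was called there. On that scaling 5 and 11 members had an unadjusted p under 0.05 in edgeR's test, against 584 and 85 of 14753 models. No other tool was run on it. With the abundant models left out the counts were 29 and 45 of 92 members tested, against 64 and 131 of 14743 models. Without 1 of the 10-month libraries they were 11 to 34 and 2 to 52, against 28 to 90 and 8 to 180 models. The first count was 81 with no low-count filter, against 300 of 18407 models called lower. It was 87 with DESeq2, against 393 of 14753, and 78 with limma-voom, against 274. From these 2 harvests alone it was 18, against 52 of 13945 models. With a replicate block the counts were 25 and 37, against 61 and 113 of 14753 models. The labels state no shared batch, and deviations of same-numbered libraries from their harvest means correlated at -0.22 to 0.04. Members called at 10 against 2 months (0) were 2 with no filter, against 605 models called higher and 322 lower of 18407. With DESeq2 they were 10, against 1131 and 621 of 14753, and with limma-voom 2, against 174 and 178. Without 1 of the 10-month libraries they were 0, against 17 to 96 models higher and 16 to 54 lower. Leaving out a 2- or 5-month library left 1 library in that harvest. No counts of called models are given for those settings, in any of the 3 comparisons. The median log2 fold change over all models, 5 against 2 months, was 0.10, and 1.11 with library size only and 0.27 with median-of-ratios factors. The members' median at 10 against 2 months (0.22) was 0.57 with library size only, 0.050 with limma-voom, 0.01 without both libraries and -0.031 to 0.60 without 1 library. Over all models tested the median (0.20) was 0.60 with library size only, 0.19 with limma-voom and 0.077 without both libraries. Without 2-month replicate 1 it was 1.31, against 0.60 in the members. Without 2-month replicate 2 it was 0.069, against -0.031.

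With library totals the separation ratio fell below 1 in 9 named members: 0.875 in 428518, 0.273 in 348936, 0.375 in 504166, 0.202 in 425708, 0.690 in 434305, 0.337 in 427201, 0.181 in 325480, 0.190 in 353544 and 0.180 in 337365. The smallest counts limit the 5-month values of the weakest members.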
